A study of Mus musculus with 10 samples.

Results

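Transcripts of 42 mouse genes that act in DNA replication and cell division were followed in macrophages grown from bone marrow. The genes were taken by symbol from a written list, and all 42 were found among the 54307 genes of the count table. Of these, 19 act in S phase, when DNA is copied, and 23 act in mitosis. RNA came from 5 wild-type control mice and 5 mice labelled hWDFY3 KI/KI, with a knock-in on both alleles and human WDFY3 overexpression as the genotype. WDFY3 (ALFY) is a large scaffold protein of selective autophagy. The mice, 1 per library according to the labels, were males aged 6 to 8 weeks. Every culture received the same treatment, namely 20% medium conditioned by L-929 fibroblasts, with harvest at day 7. The sources used here do not name the locus or promoter of the human gene. The question was whether proliferation transcripts differ between control and knock-in macrophages. None of the 42 genes passed the test for genotype, and the fitted range of each lay within a 1.5-fold change. Most of them varied together from library to library. Their S phase and mitosis means were lowest in 3 libraries rich in stromal RNA, which come from both genotypes.

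Macrophage precursors divide in response to CSF1, the growth factor that L-929 medium supplies, and they slow down as they mature. At the start of the cycle, cyclin-dependent kinases release E2F factors from RB, and E2F switches on genes for DNA synthesis. Genes for mitosis come on later through a MuvB complex with B-MYB and FOXM1, which acts at a promoter element called the CHR, often beside CCAAT boxes bound by NF-Y. MCM helicases, PCNA and nucleotide enzymes belong to the first wave. Cyclin B, CDK1, Aurora kinases and kinetochore proteins belong to the second.

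The libraries held 14.6 to 36.4 M estimated counts, and 12411 genes passed the low-count filter, among them all 42. Levels are given as CPM, which scale the counts of each library to a common TMM-adjusted size. The lowest count of any of the 42 in a library was 84, for Cdc6. The 10 macrophage markers, which include Csf1r, Adgre1, Cd68 and Lyz2, were detected in every library and summed to 24442 to 35390 CPM in controls and 30471 to 37531 CPM in knock-ins. Most of this sum was Lyz2, at 18250 to 31387 CPM, and the other 9 summed to 6078 to 6712 CPM in controls and 5846 to 6152 CPM in knock-ins. Adgre1 alone (F4/80) was at 860 to 1042 CPM in controls and 808 to 847 CPM in knock-ins, without overlap, but it did not pass the test. It is 1 of 10 markers looked at, and 1.32% of all tested genes had groups without overlap. The 12 stromal markers (collagens, Dcn, Bgn, Pdgfra and others) summed to 175 CPM in control 1, 174 CPM in control 4 and 107 CPM in knock-in 4, against 2.15 to 25.4 CPM in the other 7 libraries. None of the 12 was at 0 in all libraries. Neutrophil markers summed to 294, 260 and 221 CPM in the same 3 libraries and to 52.5 to 124 CPM elsewhere. Mmp8 carried that sum with 254, 211 and 201 CPM in the 3 libraries and 48.3 to 114 CPM elsewhere, and the other 9 summed to 39.6, 49.1 and 19.6 CPM there and to 4.16 to 12.8 CPM elsewhere. Markers of myeloid progenitors summed to 7.40 to 12.9 CPM over all libraries, and those of B cells, T and NK cells, erythroid cells, mast cells and dendritic cells to at most 5.69 CPM.

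The promoters of the list carried different motifs in its S phase and mitosis genes. RefSeq promoter windows (GRCm38.p6, 250 bases before to 50 after the start) were matched by symbol for 35 of the 42 genes, with 3 genes having 2 windows. Mcm4, Gins2, Ccne2, Ccna2, Aurkb, Tpx2 and Foxm1 had no entry. Each window was searched on both strands, overlapping matches included, for E2F-type sites (TTTCGCGC, TTTGGCGC, TTTCCCGC or TTTGCCGC), CCAAT and the CHR (TTTGAA). An E2F-type match was present in 8 of 16 S phase genes (50%), in 1 of 19 mitosis genes (5.26%, Cdk1), and in 2.61% of all 27025 genes with a window. The CHR showed the opposite pattern, with 14 of 19 mitosis genes (73.7%), 1 of 16 S phase genes (6.25%, Mcm2) and 20.2% of all genes. Within 50 bases of the start it was found in 13 mitosis genes (68.4%) and in 0 of the 16 S phase genes, against 5.72% of all genes. CCAAT was more evenly spread, with 62.5% of S phase genes, 89.5% of mitosis genes and 41.1% of all genes. A window with both CCAAT and the CHR was seen in 14 mitosis genes (73.7%) and in 7.97% of all genes. A match describes letters in a window and does not show binding.

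**Figure D1:**
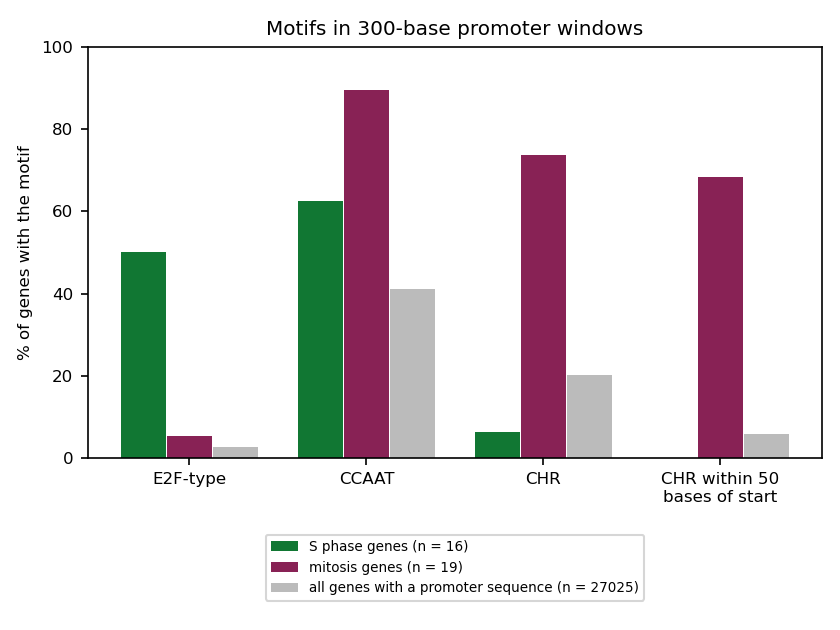
Percent of genes (y axis) whose 300-base promoter window holds each motif (x axis), for 16 S phase genes, 19 mitosis genes and all 27025 genes with a window. E2F-type matches stand out in S phase genes (50%) and the CHR in mitosis genes (73.7%).

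The 200 bases before the start of 5 genes show these arrangements. Mcm5 (chr8:75109309-75109508, plus strand) and Mcm6 (chr1:128359706-128359905, minus strand) are replication helicase genes of the E2F type. Ccnb2 (chr9:70421555-70421754), Top2a (chr11:99024190-99024389) and Mki67 (chr7:135716380-135716579), all on the minus strand, are mitosis genes with CCAAT and the CHR. All are GRCm38.p6, 5′ to 3′ on the gene's strand, and capitals mark a match to any of the 3 motifs on either strand.
Mcm5: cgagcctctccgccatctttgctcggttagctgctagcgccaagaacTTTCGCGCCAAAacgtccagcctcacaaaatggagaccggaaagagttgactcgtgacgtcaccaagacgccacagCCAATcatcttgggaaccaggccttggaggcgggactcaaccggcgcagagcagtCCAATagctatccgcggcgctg
Mcm6: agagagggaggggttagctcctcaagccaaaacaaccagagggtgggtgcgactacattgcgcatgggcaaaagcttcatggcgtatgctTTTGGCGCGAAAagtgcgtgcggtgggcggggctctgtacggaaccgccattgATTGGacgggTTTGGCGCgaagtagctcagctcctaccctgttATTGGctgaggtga
Ccnb2: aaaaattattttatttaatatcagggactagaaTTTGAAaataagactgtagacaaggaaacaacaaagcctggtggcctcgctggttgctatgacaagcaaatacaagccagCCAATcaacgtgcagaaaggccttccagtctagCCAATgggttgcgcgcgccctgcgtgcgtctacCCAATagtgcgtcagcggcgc
Top2a: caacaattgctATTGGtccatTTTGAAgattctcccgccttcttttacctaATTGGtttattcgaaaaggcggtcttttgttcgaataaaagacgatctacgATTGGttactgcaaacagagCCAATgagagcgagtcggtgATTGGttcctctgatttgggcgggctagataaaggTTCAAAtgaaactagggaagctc
Mki67: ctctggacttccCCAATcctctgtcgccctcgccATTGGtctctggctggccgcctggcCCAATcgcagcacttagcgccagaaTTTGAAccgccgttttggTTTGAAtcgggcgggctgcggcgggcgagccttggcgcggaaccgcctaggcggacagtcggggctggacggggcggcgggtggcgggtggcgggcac

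In both helicase genes a pair of E2F-type sites on opposite strands overlaps. With -1 as the last base before the RefSeq start, the pair begins at -153 in Mcm5 and at -110 in Mcm6, which has a further site at -47. For Mcm5, Mcm6, Ccnb2 and Mki67 the sequence after that start was in no GENCODE M21 transcript of the gene, so positions depend on the annotation. Mki67 has its CHR copies at -116 and -98. Top2a has copies at -179 and -23, among 6 CCAAT matches in the whole window. In Ccnb2 the copy shown begins at -167, and another, outside the stretch printed, begins at base 5 after the RefSeq start. Over the mitosis genes, the first bases of 18 distinct CHR sites ranged from -179 to 41.

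Levels between genes can be compared only per length, so CPM were divided by the kilobases of merged exons in GENCODE M21. Pcna, the sliding clamp of DNA polymerase, was far above the rest at 243 CPM per kb. It alone took 27.9% to 37.3% of all counts of the 42 genes, depending on the library. The next were Mcm6, a subunit of the MCM helicase, at 16.2 CPM per kb, Rrm2, the small subunit of ribonucleotide reductase, at 14.9, Mcm3 at 14.0, Mki67, which coats mitotic chromosomes, at 12.9, E2f1 at 12.5 and Top2a, the topoisomerase that untangles chromosomes, at 11.8 CPM per kb. The lowest were Tyms, which makes thymidylate, at 1.5, Cdc6, which loads MCM at origins, at 1.16, and Cenpf, a large kinetochore protein, at 0.989 CPM per kb. Both phases were thus represented across most of the range. Merged exon length overstates the transcript length of genes with many isoforms. The 42 genes together took 0.157% to 0.206% of counts in the controls and 0.155% to 0.205% in the knock-ins. In bulk RNA, fewer dividing cells and less of these transcripts per dividing cell cannot be told apart.

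No gene of the list passed the genotype test. In edgeR's quasi-likelihood fit with Benjamini-Hochberg adjustment over all 12411 tested genes, 0 of 42 had an adjusted p under 0.05, and the smallest was 0.610, for Pclaf. That fit called 10 genes in all (0.0806%), 5 of them higher in knock-ins (0.0403%). At an unadjusted p under 0.05 there were 2 of the 42, Pclaf and Cenpa, both with higher knock-in means, against 6.21% of all tested genes (3.29% with a higher knock-in mean). DESeq2 likewise gave 0 of 42 at an adjusted p under 0.05 and 2 at an unadjusted p under 0.05, beside 0.378% and 3.76% of the genes it gave those values. These shares include genes below the low-count filter. Among the 12411 genes that passed it, DESeq2 gave 49 and 783. With limma-voom the counts were 0 and 2, beside 0.105% and 6.69% of tested genes. With limma-trend on the deposited log2 values they were 0 and 1, beside 0.0555% and 5.86%. The groups did not overlap for 1 of the 42, Cenpa, against 1.32% of tested genes (0.733% with the knock-ins above).

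The fitted differences were small and mostly of 1 sign. The log2 fold change, knock-in over control, was above 0 for 36 of 42 genes (15 of 19 in S phase, 21 of 23 in mitosis), against 48.3% of all tested genes. Its median was 0.12 in S phase genes, 0.12 in mitosis genes and -0.0046 over all tested genes. It ranged from -0.076 (Pcna) to 0.34 (Pclaf), with SEs of 0.060 to 0.21. For all 42 genes the interval of 2 SE lay between -0.58 and 0.58, that is, within a 1.5-fold change either way. Genes that move together across libraries, as described below, are not independent observations of a sign. Counts of genes above 0, here and below, were not among the planned results. The S phase median was 0.070 without knock-in 2. The mitosis median was 0.049 without control 4, 0.058 without knock-in 3, 0.19 without control 5 and 0.19 without knock-in 4. At an unadjusted p under 0.05 there were 8 genes without knock-in 4 (7.97% of tested genes), 5 without control 5 (7.75%), 1 without control 2 (5.15%) and 1 without knock-in 3 (4.84%). Pclaf had an unadjusted p of 0.00571, and its adjusted p in edgeR, DESeq2 and limma ran from 0.154 to 0.987 over the settings tried.

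**Figure D2:**
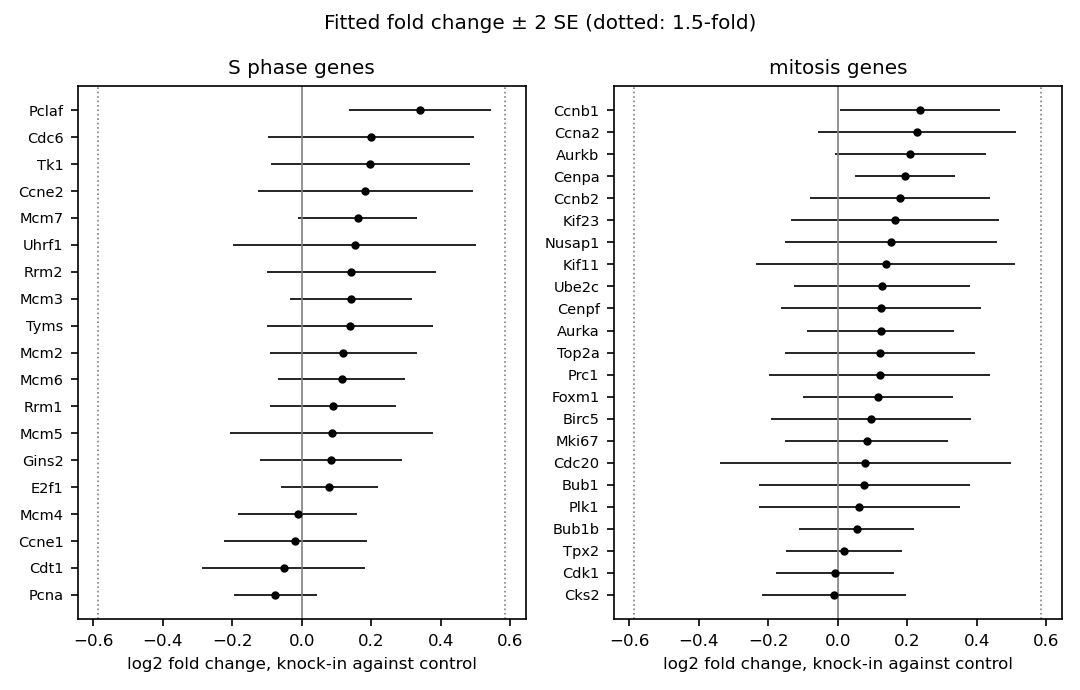
Fitted log2 fold change of knock-in over control (x axis; points, with bars of 2 SE) for each of 19 S phase genes and 23 mitosis genes (y axis), from 5 libraries per group. Dotted lines mark a 1.5-fold change, and all 42 bars lie between them, from Pcna at -0.076 to Pclaf at 0.34.

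Among the genes of the replication machinery, Pclaf had the largest difference. It encodes the PCNA-associated factor PAF15 (ENSMUSG00000040204, chromosome 9, 65890237 to 65903266, plus strand, in GRCm38 as are all gene positions here). Its level was 22.8, 22.1, 21.04, 22.4 and 29.8 CPM in controls 1 to 5 and 28.7, 32.6, 33.6, 25.1 and 29.2 CPM in knock-ins 1 to 5. All 5 knock-ins lay above the control median, and control 5 lay among them. The means were 23.6 ± 3.53 and 29.8 ± 3.39 CPM (SD, n = 5 each), the log2 fold change was 0.34 ± 0.10 (SE), and an exact 2-sided permutation test of this gene alone gave p = 0.0317. Pcna, its partner (ENSMUSG00000027342, chromosome 2, 132249162 to 132253314, minus strand), was at 646, 649, 570, 555 and 576 CPM in controls and at 584, 554, 596, 571 and 537 CPM in knock-ins. Here the highest values were controls 1 and 2, and the other 8 libraries were mixed. The means were 599 ± 44.7 and 568 ± 23.4 CPM, with a log2 fold change of -0.076 ± 0.060 (edgeR adjusted p = 0.860), or -0.046 without control 1 and likewise without control 2.

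The MCM subunits form the ring that unwinds DNA at the fork. Mcm7 (chromosome 5, 138164583 to 138172422, minus strand) was at 28.6, 32.7, 35.2, 31.7 and 37.1 CPM in controls and at 38.6, 39.6, 40.1, 30.7 and 35.4 CPM in knock-ins. Knock-ins 1, 2 and 3 stood above every control, while knock-in 4 was below all controls but control 1. Its fitted log2 fold change was 0.16 ± 0.086 (edgeR adjusted p = 0.812). Mcm3 showed the same layout, with 45.9, 49.96, 52.0, 46.9 and 54.3 CPM in controls and 56.7, 63.6, 56.5, 43.5 and 54.2 CPM in knock-ins. Again knock-ins 1, 2 and 3 were highest, but knock-in 4 was the lowest library of all. For Mcm3 the log2 fold change was 0.14 ± 0.087 (edgeR adjusted p = 0.840), and it was 0.084 without knock-in 2 and 0.21 without knock-in 4. Mcm2 was at 24.1, 29.7, 31.4, 27.5 and 31.3 CPM in controls and 31.0, 38.0, 31.99, 24.5 and 30.8 CPM in knock-ins. Only knock-ins 2 and 3 exceeded all controls, and the log2 fold change was 0.12 ± 0.11 (edgeR adjusted p = 0.881). That of Mcm2 was 0.064 without control 1, 0.042 without knock-in 2 and 0.19 without knock-in 4. Mcm4, Mcm5 and Mcm6 had log2 fold changes of -0.012, 0.085 and 0.11, each with overlapping groups.

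**Figure D3:**
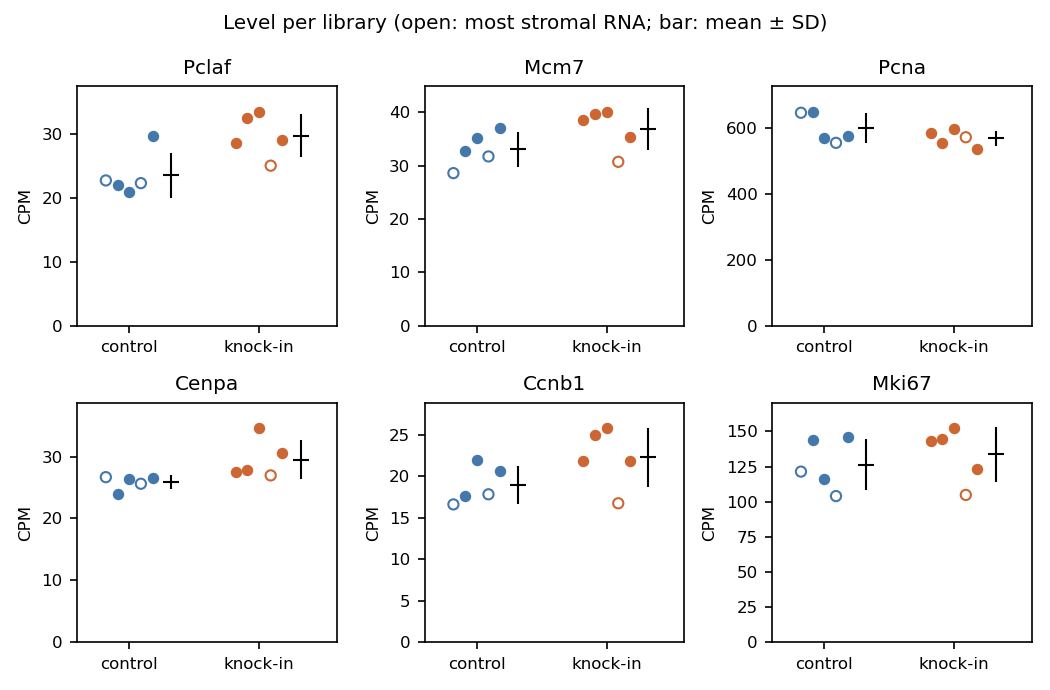
Level in CPM (y axis, from 0) of 3 S phase genes (top) and 3 mitosis genes (bottom) in 5 control and 5 knock-in libraries. Points are libraries, open points are control 1, control 4 and knock-in 4, which held the most stromal RNA, and crosses with bars are mean ± SD; only for Cenpa do the groups not overlap (control at most 26.7, knock-in at least 27.0 CPM).

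Enzymes that supply nucleotides and the factors that license origins were next. Tk1, thymidine kinase of the salvage pathway, was at 10.0, 12.6, 14.6, 11.3 and 15.9 CPM in controls and 14.4, 16.6, 16.7, 10.7 and 15.2 CPM in knock-ins. Its 3 lowest libraries were control 1, knock-in 4 and control 4. For Tk1 the log2 fold change was 0.20 ± 0.14 (edgeR adjusted p = 0.856), or 0.12 without control 1. Cdc6 was at 5.29, 6.41, 5.04, 5.19 and 6.24 CPM in controls and 7.02, 7.22, 7.55, 4.36 and 6.16 CPM in knock-ins. Knock-ins 1, 2 and 3 were again above all controls and knock-in 4 below them. For Cdc6 the log2 fold change was 0.20 ± 0.15 (edgeR adjusted p = 0.856), or 0.31 without knock-in 4. Rrm1 and Rrm2, the subunits of ribonucleotide reductase, had log2 fold changes of 0.089 and 0.14, and Tyms had 0.14. Cdt1, which loads MCM together with Cdc6, had -0.052, and Gins2, part of the active helicase, had 0.084. Uhrf1, which maintains DNA methylation behind the fork, had 0.15 ± 0.18.

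The last S phase genes regulate entry into the cycle. E2f1, the transcription factor, was at 35.1, 34.95, 43.7, 41.8 and 36.4 CPM in controls and 39.3, 42.3, 40.5, 42.1 and 38.6 CPM in knock-ins. All knock-ins lay above the control median, but controls 3 and 4 were among the highest libraries. For E2f1 the log2 fold change was 0.079 ± 0.070 (edgeR adjusted p = 0.881), and it was 0.050 without control 1, 0.047 without control 2 and 0.13 without control 3. The cyclins that activate CDK2 did not share a sign, with -0.019 ± 0.10 for Ccne1 and 0.18 ± 0.15 for Ccne2.

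Among mitosis genes, Cenpa was the one whose groups did not overlap. It encodes the histone H3 variant that marks centromeres (ENSMUSG00000029177, chromosome 5, 30666777 to 30674830, plus strand). Its level was 26.7, 23.99, 26.4, 25.6 and 26.5 CPM in controls and 27.5, 27.8, 34.6, 27.0 and 30.5 CPM in knock-ins. The gap between the highest control and the lowest knock-in was small, and knock-ins 3 and 5 made most of the difference. The means were 25.8 ± 1.11 and 29.5 ± 3.16 CPM (SD, n = 5 each), and the log2 fold change was 0.19 ± 0.073 (edgeR adjusted p = 0.706), or 0.13 without knock-in 3. An exact 2-sided permutation test of this gene alone gave p = 0.00794, the smallest that 5 against 5 libraries can give. The lack of overlap fixes this p, so it restates the separation and is no further result. On the deposited log2 values the groups overlapped, with knock-in 4 at 9.04 and the highest control at 9.13.

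The cyclins and kinase that start mitosis came next. Ccnb1, cyclin B1 (ENSMUSG00000041431, chromosome 13, 100778650 to 100786570, minus strand), was at 16.6, 17.6, 22.0, 17.8 and 20.6 CPM in controls and 21.9, 25.03, 25.8, 16.8 and 21.9 CPM in knock-ins. Knock-ins 2 and 3 were above all controls, and knock-in 4 was near the lowest control. For Ccnb1 the log2 fold change was 0.24 ± 0.11 (edgeR adjusted p = 0.799). Ccnb2, cyclin B2, was at 11.9, 17.6, 14.3, 13.2 and 16.4 CPM in controls and 15.6, 16.97, 21.2, 13.6 and 15.5 CPM in knock-ins. Here knock-in 3 alone was above all controls. For Ccnb2 the log2 fold change was 0.18 ± 0.13 (edgeR adjusted p = 0.856), and it was 0.11 without control 1, 0.072 without knock-in 3 and 0.10 without the 3 stroma-rich libraries. Ccna2, cyclin A2, which acts in S phase and early mitosis, was at 23.97, 31.9, 31.9, 24.5 and 39.97 CPM in controls and 34.8, 40.2, 40.4, 29.5 and 32.7 CPM in knock-ins. Controls 1 and 4 were lowest, and control 5 was close to the highest knock-ins. For Ccna2 the log2 fold change was 0.23 ± 0.14 (edgeR adjusted p = 0.841), or 0.10 without the 3 stroma-rich libraries. Cdk1, the kinase that these cyclins activate, was at 40.9, 44.3, 37.8, 35.6 and 42.8 CPM in controls and 37.8, 43.6, 46.0, 34.9 and 37.7 CPM in knock-ins. The ranges of both groups overlapped almost fully, and the log2 fold change was -0.0086 ± 0.085 (edgeR adjusted p = 0.993), with values of -0.066 to 0.034 when each library in turn was left out.

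Markers of dividing chromosomes and the regulators of this phase overlapped between groups as well. Mki67, the antigen Ki-67 (ENSMUSG00000031004, chromosome 7, 135689784 to 135716361, minus strand), was at 121, 144, 116, 104 and 146 CPM in controls and 144, 145, 152, 105 and 123 CPM in knock-ins. The lowest libraries were control 4 and knock-in 4. The means were 126 ± 18.2 and 134 ± 19.4 CPM, with a log2 fold change of 0.083 ± 0.12 (edgeR adjusted p = 0.924). For Mki67 this value was 0.13, 0.054, 0.022 and 0.14 without controls 2, 3, 4 and 5, and 0.053, 0.030 and 0.16 without knock-ins 2, 3 and 4. Top2a was at 93.3, 117, 95.3, 80.9 and 125 CPM in controls and 113, 123, 130, 85.2 and 105 CPM in knock-ins. The same libraries were lowest, and the log2 fold change was 0.12 ± 0.14 (edgeR adjusted p = 0.903). For Top2a it was 0.049 without control 4, 0.20 without control 5, 0.058 without knock-in 3, 0.20 without knock-in 4 and 0.066 without the 3 stroma-rich libraries. Foxm1, the transcription factor of mitosis genes, was at 13.3, 14.96, 17.4, 13.9 and 18.98 CPM in controls and 16.3, 17.7, 19.3, 14.5 and 16.96 CPM in knock-ins. The 3 lowest were controls 1 and 4 and knock-in 4, and the log2 fold change was 0.12 ± 0.11 (edgeR adjusted p = 0.889). For Foxm1 it was 0.066, 0.075 and 0.19 without controls 1, 4 and 5, 0.061 without knock-in 3, 0.045 without the 3 stroma-rich libraries and -0.0013 on the deposited log2 values. Aurkb, the kinase of the chromosomal passenger complex, was at 11.5, 12.6, 13.1, 11.4 and 14.0 CPM in controls and 13.8, 16.6, 17.02, 11.7 and 13.1 CPM in knock-ins. Knock-ins 2 and 3 were above all controls, and the log2 fold change was 0.21 ± 0.11 (edgeR adjusted p = 0.810).

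The other mitosis genes had log2 fold changes from -0.011 to 0.17 with overlapping groups. The motor proteins and spindle organisers Kif23, Nusap1, Kif11, Prc1 and Tpx2 had 0.17, 0.15, 0.14, 0.12 and 0.018. Aurka, the kinase of spindle poles, had 0.12, Plk1, a kinase of mitotic entry, had 0.062, and Birc5 (survivin), which sits in the complex with Aurkb, had 0.095. The checkpoint genes Bub1 and Bub1b had 0.076 and 0.054, and Cenpf had 0.12. Cdc20 and Ube2c, which drive cyclin destruction by the anaphase-promoting complex, had 0.079 ± 0.21 and 0.13 ± 0.13. Cks2, a small partner of CDK1, had -0.011.

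Several of these values rest on sequence shared with other genes. Stretches of at least 100 bases at 95% identity or more were found for Pcna with Pcna-ps2 (781 bases), Pclaf with Gm15428 (315), Mcm7 with Gm5487 (2157), Ccnb1 with Gm12856 (1294), Uhrf1 with Gm5648 (1590), Cdc6 with Gm9430 (1528), Tyms with Tyms-ps (677), Cdc20 with Gm7856 (455) and Rrm2 with Gm48455 (419). At 100% identity, Gins2 shared 2758 bases with Gse1, Prc1 670 with Rccd1, Ccne2 474 with Ints8 and Ccna2 431 with Exosc9. Matches of the remaining genes were at most 240 bases long (Cks2 with Gm15452), and some genes had none. Cenpa shared up to 154 bases with transcripts of 93 other genes. The spans of 20 of the 42 genes overlap another annotated gene, such as Pclaf with Trip4 and Ccna2 with Exosc9. How the authors' counting split such reads, and whether it used the strand, are not known from the sources used here, so these levels are uncertain.

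The spread between libraries of 1 genotype exceeded the difference between genotypes. The mean log2 CPM over the 19 S phase genes was 4.71, 4.92, 4.90, 4.79 and 5.06 in controls 1 to 5 and 5.00, 5.15, 5.09, 4.73 and 4.95 in knock-ins 1 to 5. Controls 1 and 4 and knock-in 4 were lowest, and knock-in 2 was highest. Over the 23 mitosis genes it was 4.24, 4.55, 4.40, 4.18 and 4.61 in controls and 4.52, 4.63, 4.73, 4.21 and 4.48 in knock-ins. The same 3 libraries were lowest, and knock-in 3 was highest. Group means were 4.88 ± 0.134 and 4.98 ± 0.159 for S phase genes and 4.40 ± 0.188 and 4.51 ± 0.198 for mitosis genes (SD, n = 5 each), so each difference was smaller than the spread within a group. The S phase mean stood above the mitosis mean by 0.36 to 0.61 in every library. Neither mean is scaled by gene length, so this offset does not rank the phases. Gene by gene, the lowest library was control 1 for 16, knock-in 4 for 12 and control 4 for 7 of the 42, and the highest was knock-in 3 for 22.

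**Figure D4:**
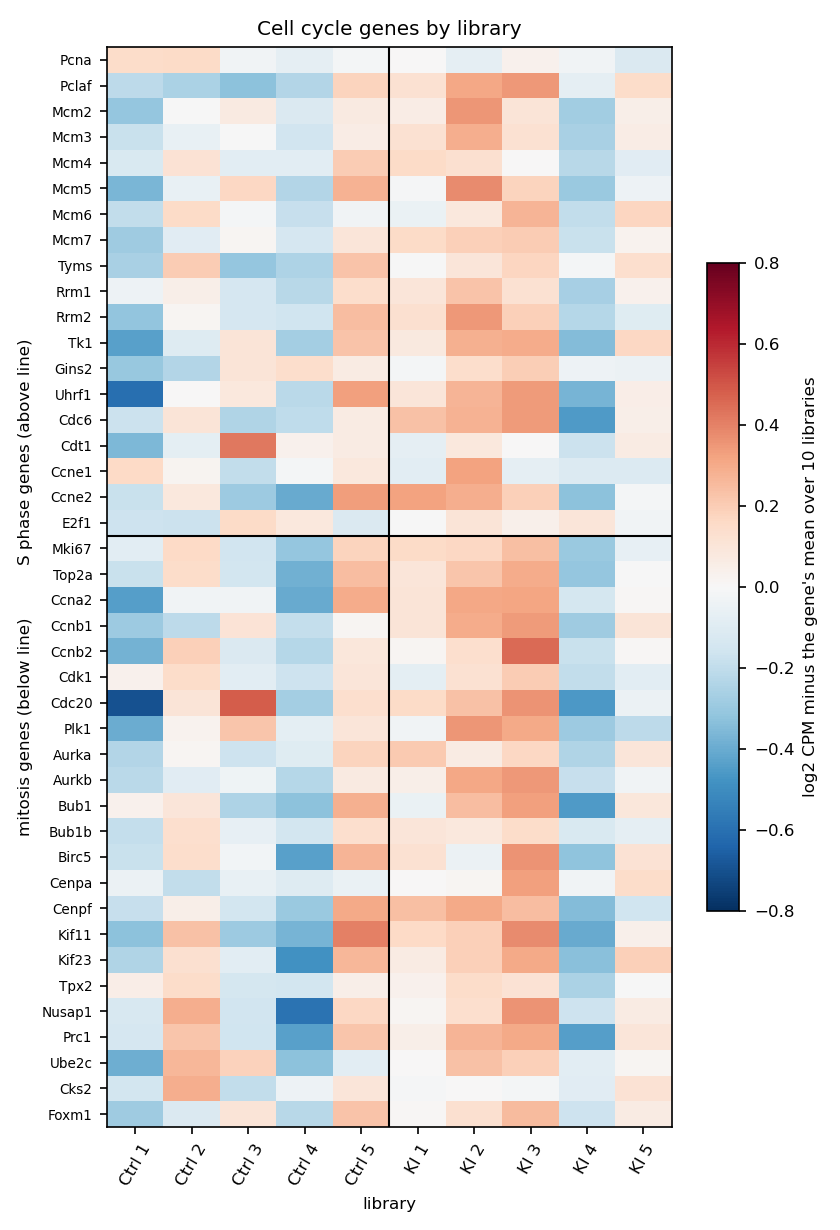
Each row is a gene (19 S phase genes above the line, 23 mitosis genes below), each column a library, and colour is log2 CPM minus the gene's mean over the 10 libraries. Control 1, control 4 and knock-in 4 are blue in most rows, and knock-in 3, highest for 22 of 42 genes, is red in most.

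These 3 libraries also hold most of the stromal RNA. Within both genotypes, 38 of 42 genes had a lower mean log2 CPM in the stroma-rich libraries than in the others (16 of 19 in S phase, 22 of 23 in mitosis), against 33.3% of all tested genes. The median difference was -0.26 between controls 1 and 4 and the other controls (S phase -0.21, mitosis -0.32), and -0.36 between knock-in 4 and the other knock-ins (S phase -0.32, mitosis -0.37). For 20 of 42 genes (8 in S phase, 12 in mitosis) the 3 lowest libraries were exactly these 3, against 5.15% of tested genes. Cdc20, the activator of the anaphase-promoting complex, differed most in controls (-0.72, and -0.63 in knock-ins), and Uhrf1 had -0.55 and -0.56. Pcna (0.0025 and 0.011) and E2f1 (0.0037 and 0.067) were not lower in either genotype. Ccne1 (0.10 and -0.12) and Cenpa (0.030 and -0.15) were lower in the knock-in only.

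**Figure D5:**
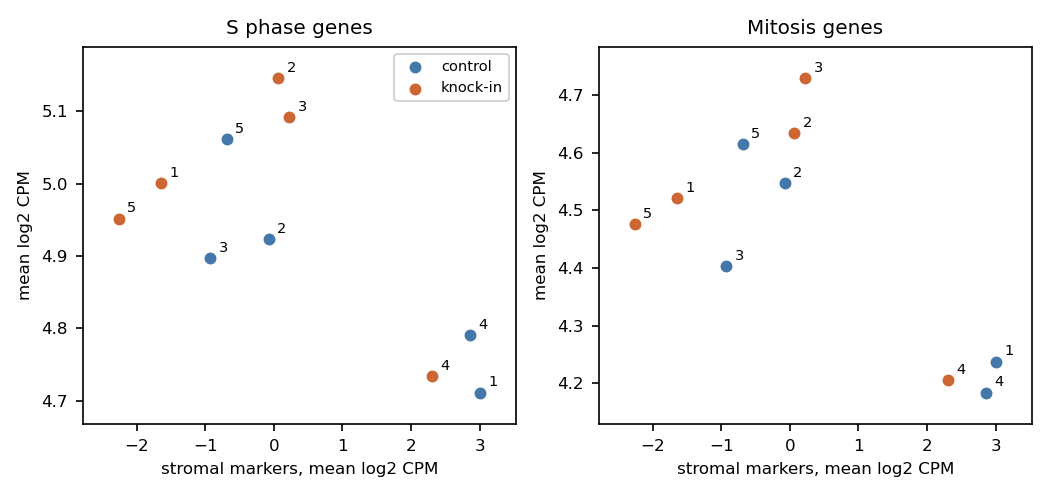
Mean log2 CPM of the S phase genes (left) and mitosis genes (right) on the y axis against the mean log2 CPM of 12 stromal markers on the x axis, for 5 control and 5 knock-in libraries, numbered by replicate. Control 1, control 4 and knock-in 4 lie at the right and lowest, at S phase means of 4.71, 4.79 and 4.73.

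When the stromal marker mean entered the edgeR fit beside genotype, its coefficient was below 0 for 39 of 42 genes (16 of 19 in S phase, 23 of 23 in mitosis), against 50.7% of tested genes. None of the 42 passed an adjusted p under 0.05 for it, where 3.81% of tested genes did (1.22% with a negative coefficient). At an unadjusted p under 0.05 there were 16 of 42, all negative, against 18.4% of tested genes in either direction and 8.86% in that direction. The smallest adjusted p was 0.0919 (Kif23), followed by 0.0935 (Tk1). This fit was added after the data had been seen, and neutrophil markers move with the same 3 libraries. Some macrophage markers differed there too. Lyz2 was at 27329 and 28678 CPM in controls 1 and 4 and at 18250 to 20814 CPM in the other controls. In knock-in 4 it was at 31387 CPM, against 24625 to 29030 CPM in the other knock-ins. Itgam and Mertk were likewise higher in the stroma-rich libraries of both genotypes, Adgre1 and Cd14 were lower, and the rest were mixed. The part of each in the lower levels was not tested.

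The genotype difference without those 3 libraries had smaller medians. With 3 controls and 4 knock-ins, 0 of 42 genes were called by edgeR against 0.304% of tested genes, and 3 of 42 had an unadjusted p under 0.05 against 6.90%. Those 3 were Pclaf, Cenpa and Ccnb1, whose log2 fold changes were not smaller than with all libraries. They were 0.35, 0.24 and 0.24 in this fit, against 0.34, 0.19 and 0.24 with all libraries. Those of Ccnb2, Ccna2, Top2a and Foxm1 were smaller, as given above. In the same fit the log2 fold change was above 0 for 34 of 42 genes against 49.8% of tested genes, with medians of 0.092 in S phase and 0.059 in mitosis genes. S phase means were then 4.96 ± 0.0885 and 5.05 ± 0.0875, and mitosis means 4.52 ± 0.108 and 4.59 ± 0.114 (SD, n = 3 and 4). With the stromal mean as a covariate, 0 of 42 were called against 0.0967% of tested genes, 2 had an unadjusted p under 0.05 against 6.29%, and 34 of 42 had a log2 fold change above 0 against 48.8%. The medians were 0.077 in S phase and 0.044 in mitosis genes.

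None of the other cell cycle genes passed either. Of 159 further genes in 9 lists, 158 were tested and 0 passed at an adjusted p under 0.05 in edgeR (0.0806% of all tested genes) or DESeq2 (0.378%). At an unadjusted p under 0.05 there were 2 in edgeR (6.21% of all tested genes) and 2 in DESeq2. DESeq2 gave such a p to 3.76% of the genes with a p, and to 783 of the 12411 genes past the low-count filter. The log2 fold change was above 0 for 113 of the 158, against 48.3% of all tested genes, with a median of 0.057. The spindle motor and cytokinesis list was the nearest to the mitosis genes, with 20 of 21 above 0 and a median of 0.12. Its CHR share was 85.0% of 20 windows. Kinetochore and checkpoint genes had 19 of 24 above 0 (median 0.086), replication fork genes 19 of 26 (0.10), and cohesin and condensin genes 11 of 15 (0.030). The G1 cyclins and kinases had 10 of 14 (0.073), CDK inhibitors 4 of 6 (0.098), RB, E2F and MYB regulators 15 of 19 (0.051) and origin genes 8 of 14 (0.010). The anaphase-promoting complex was the only list with a negative median, -0.023, with 7 of 19 above 0. Most of its subunits are not restricted to dividing cells.

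Single genes of these lists are given as the 2 with the smallest p in each, none of which passed. Cdc25b, the phosphatase that activates CDK1, had non-overlapping groups at 27.6 ± 2.40 and 31.7 ± 1.76 CPM (log2 0.20 ± 0.068, edgeR adjusted p = 0.700). Of the 158 genes, it alone lacked overlap, against 1.32% of all tested genes. Chaf1b, a histone chaperone at the fork, was at 11.5 ± 1.27 and 13.7 ± 2.03 CPM (log2 0.25 ± 0.11, edgeR adjusted p = 0.788). Both had the smallest p of their lists. Fbxo5 (EMI1), an inhibitor of the anaphase-promoting complex, was at 6.99 ± 1.75 and 8.70 ± 1.18 CPM (log2 0.33 ± 0.16), and the subunit Anapc16 at 21.9 ± 1.64 and 19.9 ± 1.72 CPM (log2 -0.14). The CDK inhibitors Cdkn1b (p27) and Cdkn2b (p15) had log2 fold changes of 0.13 and -0.49 ± 0.37, the second at only 1.30 and 0.913 CPM. Rb1 had 0.12 and E2f2 0.16, Cks1b 0.16, and the origin genes Orc3 and Mcm10 -0.087 and 0.12. Wdhd1, a fork factor, had 0.21. Esco2 and Smc2, of cohesion and condensation, had 0.26 and 0.18. The checkpoint genes Ttk and Zw10 had 0.24 and -0.12, and the spindle genes Kif18b and Ckap2l 0.24 and 0.28.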

How the data were processed

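The 10 libraries are strand-specific and poly(A)+, read as 100-bp pairs with 20 M reads planned for each, per the labels' protocols. The authors deposited estimated counts per gene (Salmon 1.6.0) and log2 values on the regularized-log scale (DESeq2 1.34.0), per the table's name and the submitters' processing notes, which also name the builds GRCm39 and mm10 without a role. The deposited log2 table named all 42 genes. The listed genes, the other lists and the markers were chosen with earlier results of these data known.

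Estimated counts were rounded and tested across all genes with edgeR 4.0.16 (R 4.3.3; TMM factors, filterByExpr with a minimum count of 10, robust quasi-likelihood F-test, threshold 0.05). The SE is the log2 fold change divided by the square root of F. Log2 CPM used a prior count of 2, and edgeR's biological coefficient of variation was 15.6%. Within groups, the chi-square per gene between any pair of libraries was at least 8.75, so no library was treated as a copy of another. The labels name a separate mouse for each library, and p-values rest on the spread between them. Code was first tested on simulated data.

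Other settings tried were DESeq2 1.42.0, limma 3.58.1 (voom on counts, trend on the log2 table), upper-quartile or RLE factors, no filter, 1 CPM in 5 libraries, no robust estimation, unrounded counts, a replicate block, each library left out, and the 3 most stromal libraries left out or the stromal mean as a covariate. Values per library are printed for the 5 genes with the smallest p in each phase, non-overlapping genes, and Mki67, Top2a, Pcna, Mcm2, Ccnb1, Cdk1, E2f1 and Foxm1. Of each other list the 2 genes with the smallest p are named. Gene positions come from GENCODE M21 by gene ID, promoters from RefSeq, and shared sequence from BLAST 2.17.0 against M21 transcripts.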

Additional observations from a re-analysis of the deposited data

Results flagged for a closer look

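Of 172 groups of 5 values checked for a library far from the other 4 (each gene, the S phase mean and the mitosis mean in each genotype on log2 CPM, and each gene in each genotype on the deposited log2 values), 5 stood out by Dixon's ratio of the gap to the range, against a critical value of 0.71 that chance passes about 1 time in 20. Pclaf in controls had a ratio of 0.771, because control 5 was at 4.90 and the others at 4.40 to 4.52 in log2 CPM (29.8 against 21.04 to 22.8 CPM). Ccne1 in knock-ins had 0.914, with knock-in 2 at 3.72 and the others at 3.29 to 3.32 in log2 CPM (13.1 against 9.65 to 9.91 CPM). The other 3 were on the deposited log2 scale. Mcm7 in knock-ins had 0.892, with knock-in 4 at 9.29 and the others at 9.56 to 9.59. Tyms in knock-ins had 0.795, with knock-in 4 at 7.46 and the others at 7.60 to 7.63. Cenpf in knock-ins had 0.743, with knock-in 2 at 9.06 and the others at 8.11 to 8.36, although its CPM of 18.5 there was close to the highest of the others, 17.9.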

How the results depend on the processing

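None of the 42 genes, and none of the other cell cycle genes, was called under any of the 22 alternatives. The number above 0 stayed between 32 (without knock-in 3) and 40 (without knock-in 4). The count of all called genes was 10 at first, 52 with DESeq2 (34 higher, 18 lower), 38 without the 3 stroma-rich libraries (23 higher, 15 lower), and 6 to 23 when 1 library was left out, with 6 without control 2, knock-in 1, 2 or 3 and 23 without knock-in 4; the cause was not tested. The S phase median ran from 0.063 (limma-trend on the deposited log2 values) to 0.17 and the mitosis median from 0.044 (stromal covariate) to 0.19. Over the 17 genes with values per library, the sign turned for Cdk1, from -0.0086 to 0.029 without control 2, 0.013 without control 5, 0.011 without knock-in 1, 0.034 without knock-in 4 and 0.012 without knock-in 5 (range -0.066 to 0.034), and for Foxm1, to -0.0013 with limma-trend. The replicate numbers were not taken to pair the mice, since same-numbered libraries had correlated deviations above 0.1 for 2 of 5 numbers (-0.20, 0.027, 0.039, 0.51 and 0.25) and 2 of 5 matched their own number best. With the replicate block, 0 of the 42 were called, 36 were above 0, the medians were 0.11 and 0.12, and 12 genes were called in all (7 higher, 5 lower). Counts as low as 84 and SEs of 0.060 to 0.21, with 5 mice a group, limit what could be detected.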

Other observations

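The deposited log2 values and the CPM ordered the libraries differently for some genes, which were chosen after their values were seen. Bub1b was at 8.70, 9.15, 8.80, 8.74 and 8.92 in controls and 9.06, 8.87, 9.01, 9.07 and 9.08 in knock-ins on the deposited log2 scale. Its CPM were 20.9, 26.2, 22.8, 21.6 and 26.3 in controls and 25.6, 25.4, 26.5, 22.0 and 22.7 in knock-ins, so knock-in 4 was among the highest on the first scale and among the lowest on the second. Why the tables differ was not tested.

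Cdkn1a (p21), a CDK inhibitor and p53 target chosen after its values were seen, was at 72.8 to 87.6 CPM in the controls. Knock-ins 1 and 2 were at 117 and 137 CPM and knock-ins 3, 4 and 5 at 70.8, 69.2 and 66.1 CPM. Its log2 fold change was 0.19 ± 0.21 (edgeR adjusted p = 0.903). Cdkn1c (p57) was at 105 to 159 CPM in controls and at 72.2, 73.3, 99.1, 148 and 221 CPM in knock-ins, a wider spread, with a log2 fold change of -0.16 ± 0.32 (edgeR adjusted p = 0.949). Knock-ins 1 and 2 thus had the highest Cdkn1a and the lowest Cdkn1c of the 10 libraries.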
